A study of Mus musculus with 10 samples.

Results

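The data described here are 2 of the 10 arrays of a mouse small-intestine series: 1 array of organoids kept for 1 day without R-spondin (EN) and 1 array of control organoids kept with it (ENR). Organoids are miniature epithelia grown from intestinal crypts, and the letters stand for the medium, EGF and Noggin with or without R-spondin. Both cultures came from small intestine and were read 1 day after splitting, so they share the splitting, EGF and Noggin and differ, per the labels, in R-spondin. The labels give no genotype, age or strain for them and do not say that replicate cultures were pooled or repeated. The array labelled ENR is called a control, whereas the series' design text speaks of cells before and after the withdrawal. RNA of each culture was labelled with Cy5 and hybridised beside a commercial mouse reference RNA in Cy3, which was meant to be the same on both arrays. A change is the log2 Cy5/Cy3 ratio without R-spondin minus that with it, for the 17165 genes whose brightest probe stood well above background in Cy5 on at least 1 of both arrays. With 1 array per condition, every value is a size with no test, and 2-fold (1 on the log2 scale) served as the line past which a gene is said to have risen or fallen.

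R-spondins are secreted proteins that strengthen Wnt signalling. They bind LGR receptors together with the membrane E3 ligases ZNRF3 and RNF43, which otherwise remove Frizzled receptors from the cell surface, so that Frizzled and Lrp co-receptors stay available to Wnt ligands and beta-catenin with TCF factors stays active on its target genes. In the small intestine this signal is strongest at the crypt base, where Lgr5-positive stem cells sit between Paneth cells, and the study used the withdrawal as a yardstick for the loss of Lgr4 and Lgr5.

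Loss of R-spondin for 1 day went with lower signals of Lgr5, Axin2, Olfm4 and other stem cell and Wnt target genes. It also went with a fall of nearly the whole DNA replication and mitosis lists. Higher signals were seen for 15 of 40 measured enterocyte markers and 7 of 27 measured goblet cell markers. In all, 1114 of 17165 genes (6.49%) fell at least 2-fold and 759 (4.42%) rose. The larger changes were mostly downward: 253 genes fell and 37 rose by at least 2 on the log2 scale, and 41 fell and 1 rose by at least 3. The median over all genes was 0.07 and their SD was 0.655. By Cy5 alone, 1214 genes (7.07%) fell and 925 (5.39%) rose, and 1047 of the 1114 lower and 660 of the 759 higher genes passed 2-fold by Cy5 too. RNA of whole cultures does not tell fewer cells of a type from less RNA per cell.

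Several measures describe the spread around a comparison with no replicate. None of them holds the difference between replicate cultures of the withdrawal itself, so none bounds its error. Repeated spots of 1 probe differed with a pooled SD of 0.0875 on the array without R-spondin and 0.103 on the other. Of 5269 genes with more than 1 measured probe, 220 (4.18%) had probes over 2-fold apart, and 2 genes had probes past 2-fold in opposite directions. Among genes with several probes, 388 of 410 lower genes lay below 0 by every probe and 256 of 268 higher genes lay above 0 by every probe. The Cy3 reference differed between the arrays with an SD of 0.182, and 75 of 15100 genes (0.497%) were 2-fold apart in it. As an outside measure of how far cultures of 1 kind differ, the 2 wild type organoid cultures of the same series were 2-fold apart in Cy5 for 623 of 12403 genes (5.02%), and the 2 cultures with Lgr4 and Lgr5 deleted for 427 of 12957 (3.30%). Those shares count both directions, in Cy5 from median pixels and across slides. The shares called here, 6.49% lower and 4.42% higher, count 1 direction each, by ratio on 1 slide. With no replicate, a single gene just past 2-fold is not set apart from the difference between cultures. In Cy5, 63.1% of gene probe spots were well above background without and 62.2% with R-spondin, and no spot was saturated. The epithelial marker Epcam, a cell adhesion protein, read 37726 without and 34800 with R-spondin in Cy5, and none of 12 measured epithelial markers passed 2-fold by ratio. By Cy5 alone 2 of them rose. Another 4 had marked spots, and with these kept 1 rose by ratio (Krt19, 1.19). Of the stromal list 0 of 15 and of the immune list 0 of 19 measured genes passed 2-fold. The endothelial genes Pecam1, Cdh5, Kdr, Emcn and Tie1 were not above background on either array. Esam and Egfl7 of that list fell (-2.28 and -1.78), and what part other cells had in this was not tested.

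Among the receptors and E3 ligases through which R-spondin acts, 3 of 6 measured genes fell and none rose, with a list median of -0.72. Lgr5, the R-spondin receptor that marks crypt base stem cells, gave 174 without and 6600 with R-spondin in Cy5 (mean pixel signal), and was not well above background without. Its change by ratio was -5.08. In normalised Cy5, set against the higher of its dim spot and the lowest signal called above background, it was at least 74.1-fold lower. Such a bound is of the Cy5 fold, not of the ratio, and the ratio of a gene below background on 1 array is no bound. Lgr4, the related receptor found along the whole crypt, gave 2781 and 2454, a change of -0.01, with its 3 probes between -0.01 and 0.54. Lgr6 lay near background on both arrays, at 215 and 209. Withdrawal of the ligand thus went with a lower signal of one of its receptors and no 2-fold change of the other. Rnf43, one of the E3 ligases, gave 1951 without and 9953 with R-spondin and had a change of -2.09 (its other probe -1.13). Znrf3, the other E3 ligase, gave 320 and 734 and fell by 1.43. Both ligases are themselves known Wnt targets. Rspo4 gave 190 and 181, and the other R-spondin genes were below background on both arrays.

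Of the feedback regulators and TCF factors of the Wnt pathway, 5 of 24 measured genes fell and 1 rose, with a list median of -0.02. Those that fell were mostly genes that Wnt signalling is known to induce. Axin2, a scaffold of the beta-catenin destruction complex and a standard Wnt reporter, gave 157 without and 785 with R-spondin. It was not well above background without. Its change was -3.52, and in Cy5 it was at least 8.62-fold lower. Sp5, a transcription factor, gave 933 and 2855 and fell by 1.62. Nkd1, an inhibitor acting on Dishevelled, gave 238 and 593 and fell by 1.98 on its brightest probe, while its other probe read -0.14. Tcf7, a TCF factor, gave 191 and 383 (-1.72, the other probe -0.40), and Apcdd1, an inhibitor at the receptor, gave 414 and 714 (-1.26). Tle4, a Groucho co-repressor, rose by 1.13, from 9024 with to 20556 without R-spondin.

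The core of the pathway did not pass 2-fold. Ctnnb1, which encodes beta-catenin, had a change of 0.18, with signals of 19929 without and 14558 with R-spondin. Apc read 0.34, Gsk3b 0.00, Axin1 -0.26 and Tcf7l2, the main TCF factor of this epithelium, -0.02. The Dishevelled genes Dvl1, Dvl2 and Dvl3 read 0.31, -0.59 and 0.16. Lef1 and Notum, both Wnt targets elsewhere, were near background on both arrays, at 204 and 200 for Lef1 and 187 and 184 for Notum.

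Among the Wnt ligands, Frizzleds and Lrp co-receptors, 5 of 26 measured genes fell and 1 rose. Wnt3, the ligand that Paneth cells supply to the stem cells, gave 350 without and 1465 with R-spondin and had a change of -2.21, and -2.56 on its other probe. Wls, which carries Wnt ligands to the cell surface, gave 716 and 1530 (-1.30, its other probe -0.36). Of the receptors, Fzd9 gave 183 and 710 (-2.38, in Cy5 at least 6.37-fold lower), Fzd7 gave 333 and 708 (-1.56, its other probe -0.35), and Fzd2 gave 900 and 1851 (-1.23, its other probe -0.51). Fzd5, the Frizzled that Paneth cell maturation is known to need, went the other way, from 645 with to 1728 without R-spondin (1.18, its other probe 0.51).

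**Figure D1:**
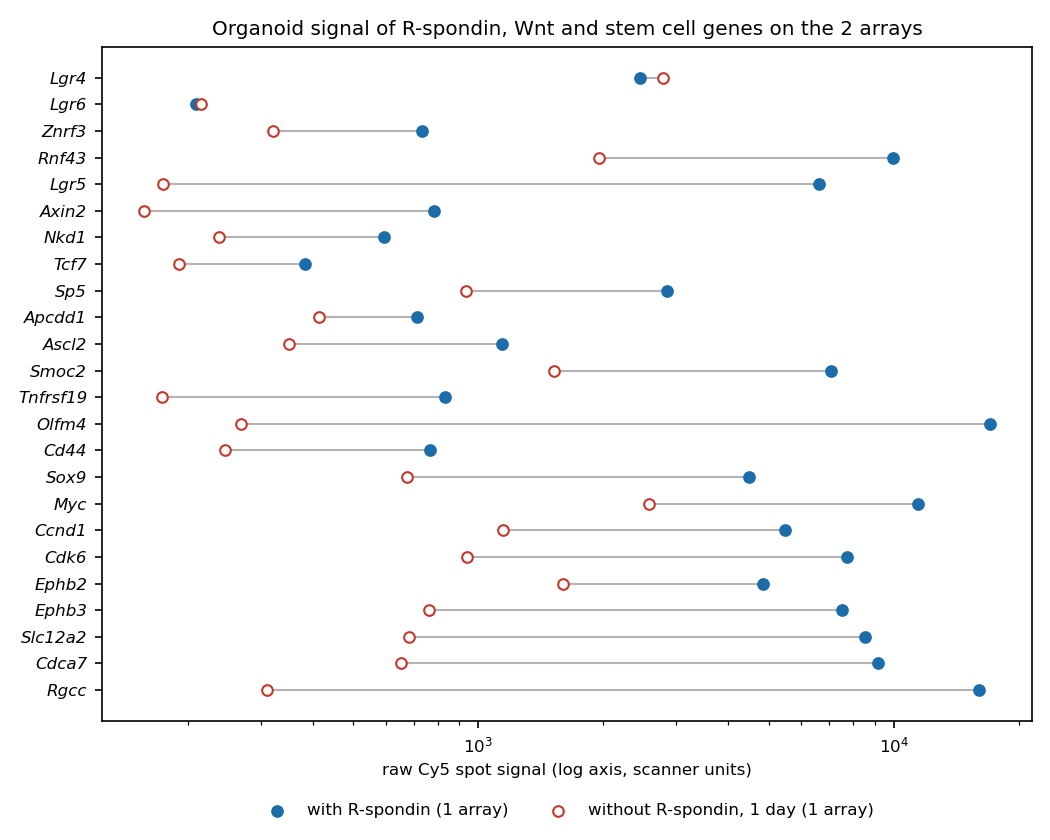
Cy5 signals (log axis, mean pixel intensity) of 24 genes of the R-spondin and Wnt pathway, stem cells and crypt targets, with 1 point for the array without and 1 for the array with R-spondin. Lgr5 moves from 6600 to 174 and Olfm4 from 17037 to 269, whereas Lgr4 reads 2454 with and 2781 without R-spondin.

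Known crypt targets of Wnt made up the lists with the lowest medians apart from the cell cycle. Of the crypt progenitor Wnt targets, 15 of 23 measured genes fell and none rose, with a median of -1.90 (by Cy5 alone, 17 and -2.16). Cdca7, a nuclear protein needed for chromatin remodelling at repeats, gave 653 without and 9152 with R-spondin and fell by 3.92. Ephb3, a receptor that holds cells in the lower crypt, gave 760 and 7504 (-3.33), and its relative Ephb2 gave 1603 and 4842 (-1.76). Slc12a2, the chloride cotransporter of crypt cells, gave 683 and 8517 (-3.75). Cell cycle drivers among the targets, named here after their values were seen, fell as well: Cdk6 gave 939 and 7732 (-3.32, one of its probes -0.71), Ccnd1 1151 and 5477 (-2.46) and Myc 2573 and 11475 (-2.36, its probes from -2.48 to -1.86). Sox9, a transcription factor of crypt progenitors and Paneth cells, gave 674 and 4478 (-2.83, one of its probes -0.61). Cd44, a surface glycoprotein of crypt cells, gave 246 and 764 (-2.26, its other probe -0.62).

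Of 38 measured crypt base stem cell markers 24 fell and 1 rose, with a median of -1.62 (by Cy5 alone, 27, 1 and -2.09). Olfm4, a secreted glycoprotein made by these cells, gave 269 without and 17037 with R-spondin and had a change of -4.48, and -5.53 on its other probe. Tnfrsf19, a TNF receptor family member and Wnt target, gave 173 and 830, with a change of -2.99 (in Cy5 at least 8.54-fold lower). Rgmb, a BMP co-receptor, gave 574 and 2700 (-2.47, one probe -0.38), Phlda1 gave 2860 and 13662 (-2.34), and Lrig1, a brake on ErbB receptors, gave 4066 and 12692 (-1.75). Smoc2 gave 1522 and 7061 (-1.87), and Ascl2, the transcription factor that specifies stem cells, gave 350 and 1144 (-1.56), both named after their values were seen. Msi1, an RNA-binding protein, was the member that rose by its brightest probe, from 1079 to 2238 (1.04), but its other probe read -1.77 and the mean over its probes -0.36.

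Promoter windows from RefSeq (GRCm38.p6) show where letters of a TCF site occur before the start of 3 of the genes that fell. The motif searched was CTTTGAA, the variant CTTTGAT, the variant CTTTGTA and the variant CTTTGTT, on either strand within 250 bases before the start. Capitals mark the match in windows of 60 bases, written on the strand of the gene, where a match on the other strand reads as its reverse complement. The Sp5 window is chr2:70474793-70474852 (+), the Tnfrsf19 window chr14:61038156-61038215 (-) and the Fzd7 window chr1:59481991-59482050 (+).
Sp5: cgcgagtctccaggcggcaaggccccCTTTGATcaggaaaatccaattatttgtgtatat
Tnfrsf19: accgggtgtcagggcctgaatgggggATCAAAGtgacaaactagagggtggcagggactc
Fzd7: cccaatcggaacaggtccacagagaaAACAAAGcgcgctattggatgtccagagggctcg
The letters were no more frequent before the genes that fell than before others: 98 of 843 (11.63%) fallen genes with a promoter in the table held them, 83 of 540 (15.37%) risen genes, 13.36% of all measured genes and 14.84% of all promoters of the table. They stood before 4 of 15 (26.67%) of the crypt progenitor Wnt targets and 6 of 28 (21.43%) of the stem cell markers, and these numbers are small. Other lists had 3 of 19 (15.79%, Wnt feedback regulators and TCF factors), 4 of 20 (20%, S phase histones) and 2 of 39 (5.128%, DNA replication). The enterocyte markers, which rose, had 7 of 37 (18.92%), so the letters did not single out Wnt target or stem cell lists. A match is a description of the letters only.

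The cell cycle lists fell almost whole. Of 47 measured DNA replication genes 42 fell and none rose, with a median of -2.23, and of 49 measured mitosis genes all 49 fell, with a median of -2.10. Uhrf1, which keeps DNA methylation through replication, gave 326 without and 4634 with R-spondin and had a change of -4.23, and -3.21 on its other probe. Dtl, a substrate adaptor that limits licensing of origins, gave 183 and 1549 (-3.97, its other probe -0.93). Chaf1b, a subunit of the chromatin assembly factor, gave 845 and 8674 (-3.63), and Mcm3, of the replicative helicase, gave 421 and 3272 (-3.37). Exo1, an exonuclease of mismatch repair that was outside these lists, gave 366 and 4383 (-4.00). On the mitotic side, Ncapg of the condensin complex gave 824 and 6430 (-3.03) and Ect2, which drives the cleavage furrow, gave 880 and 5610 (-2.87). Top2a, the topoisomerase of dividing cells, gave 386 and 2291 (-2.80, its other probe -0.35), and the spindle checkpoint kinase Bub1 gave 339 and 1799 (-2.79), although its other probe read 0.14. Esco2, which acts in joining sister chromatids and was outside these lists, gave 179 and 472 (-2.15) and was above background only with R-spondin.

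The letters of an E2F site, TTTCCCGC, TTTGGCGC, TTTGCCGC or TTTCGCGC on either strand, were searched in the same 250 bases after the fall of the replication genes had been seen. Windows are shown for Uhrf1 at chr17:56304102-56304161 (+), Cdca7 at chr2:72476122-72476181 (+) and Dtl at chr1:191575545-191575604 (-). They were picked from the lowest genes because they held a match, and not by rank alone. Capitals mark the match as before.
Uhrf1: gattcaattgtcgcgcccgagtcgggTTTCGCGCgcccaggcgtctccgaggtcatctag
Cdca7: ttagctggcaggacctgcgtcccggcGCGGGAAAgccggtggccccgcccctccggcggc
Dtl: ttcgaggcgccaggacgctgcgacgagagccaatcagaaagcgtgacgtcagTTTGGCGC
These letters stood before 66 of 843 (7.829%) genes that fell, 8 of 540 (1.481%) that rose, 3.485% of all measured genes and 1.86% of all promoters of the table. Of the DNA replication genes, 10 of 39 (25.64%) had them. Of the mitosis genes, which fell as well, only 2 of 42 (4.762%) had them, near the share of all measured genes.

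The histone genes that are transcribed in S phase did not move as a block. In this list, added after histones had been seen among the lowest genes, 10 of 24 measured genes fell and 4 rose, with a median of -0.35. H2ac10 gave 2956 without and 28426 with R-spondin (-3.63), H1f5 391 and 2717 (-2.84), and H2ac15 4489 and 19398 (-2.46). H2bc4 rose from 3413 to 11300 (1.45), H2bc12 from 7900 to 20768 (1.23) and H1f2, a linker histone, from 2156 to 5448 (1.20). Copies of these genes are nearly identical, so a probe can read several of them and each value is uncertain as to the copy.

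Ribosome biogenesis genes fell less far but together: 27 of 42 measured genes fell and none rose, with a median of -1.28. Nop56, of the complex that methylates ribosomal RNA, gave 8410 without and 29258 with R-spondin (-2.09), Gar1 gave 1286 and 5299 (-2.21) and Rrs1 gave 715 and 2317 (-2.06). The ribosomal proteins themselves moved little. Of 54 measured cytosolic members 1 fell (Rps28, -1.04), with a median of -0.43, and none of 71 mitochondrial members passed 2-fold. None of 57 oxidative phosphorylation subunits passed 2-fold either, with a median of 0.34.

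**Figure D2:**
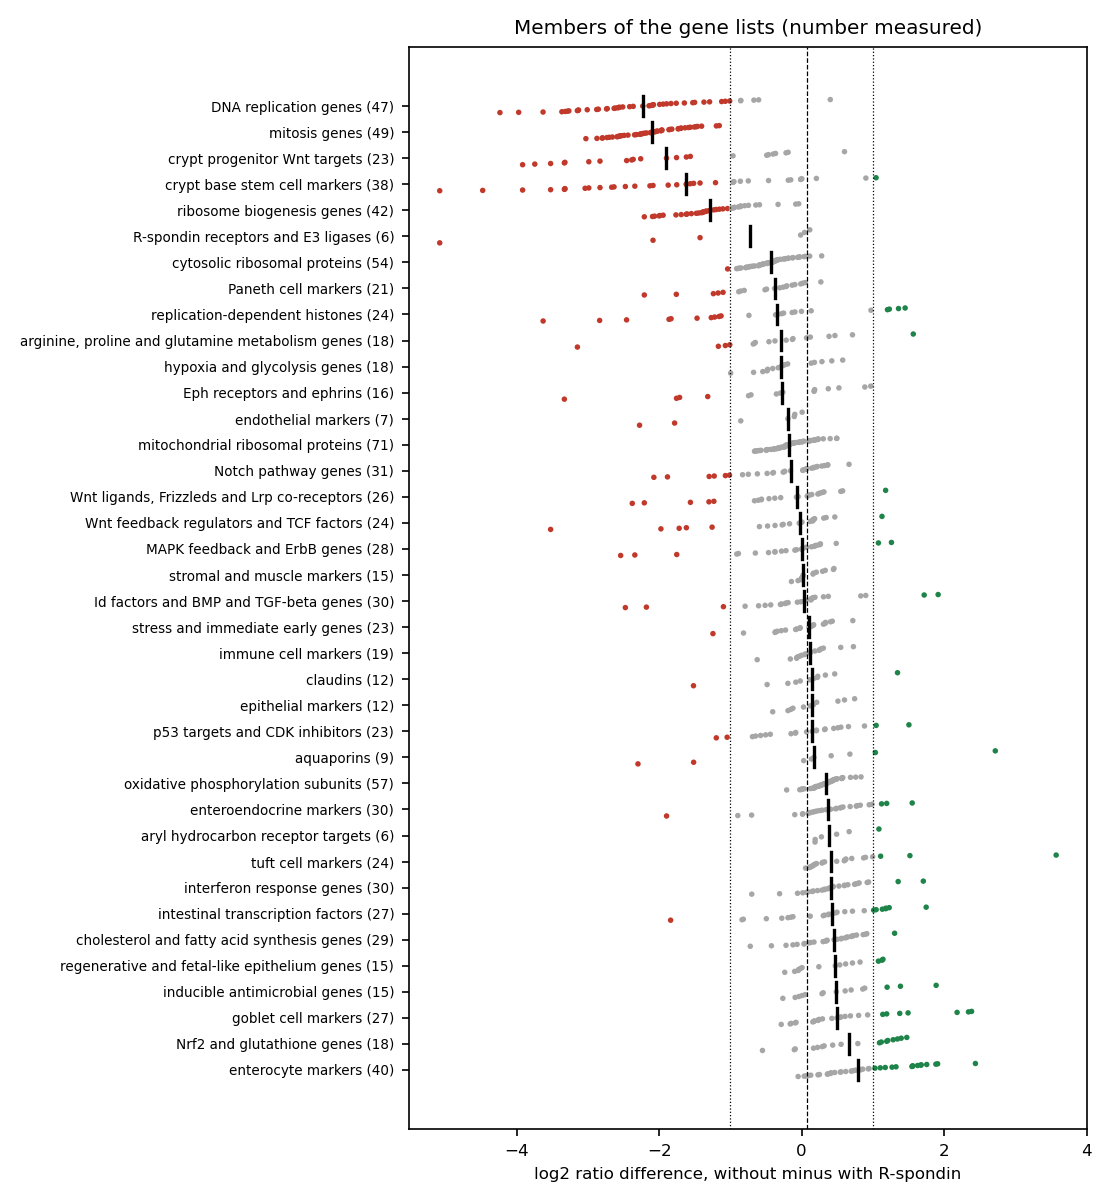
Changes without R-spondin (log2 ratio, x axis) of the measured members of each gene list, 1 point per gene and a bar at the list median, with lines at -1 and 1. The replication and mitosis medians stand at -2.23 and -2.10 and the enterocyte median at 0.79.

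Some of the lowest single genes belonged to none of these lists. Rgcc, a regulator of cell cycle kinases, had the lowest change of all genes named by rank, with 310 without and 16072 with R-spondin (-6.34). Pla2g5, a secreted phospholipase A2, gave 253 and 5816 (-5.07). Tgif2, a repressor in TGF-beta signalling, gave 667 and 10716 (-4.22). Prelp, a matrix proteoglycan, gave 465 and 5930 (-4.10), but its other probe read -0.43. Ptpro, a receptor tyrosine phosphatase, gave 171 and 1298, with a change of -4.01 (in Cy5 at least 14.7-fold lower). Pcdh8, a protocadherin, gave 162 and 663 (-2.80) and Klhl8 177 and 546 (-2.14), and both were above background only with R-spondin. Fignl1, which acts in DNA repair, gave 304 and 2863 (-3.53).

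Marker lists of differentiated lineages had medians on both sides of 0. Of the Paneth cell markers, 5 of 21 measured genes fell and none rose, with a median of -0.38 (by Cy5 alone, 7 and -0.90). Lyz1, the lysozyme of Paneth granules, gave 41748 without and 75969 with R-spondin (-1.17), and Cd24a, a surface protein of Paneth cells and progenitors, gave 5566 and 20288 (-1.76). Ang4, an antimicrobial ribonuclease, gave 19604 and 48157, a change of -0.88, and Mmp7, which processes defensins, gave 6443 and 12908, a change of -0.22. The measured alpha-defensins did not pass 2-fold: Defa3 read -0.49, Defa20 -0.51, Defa21 0.05, Defa22 -0.21 and Defa23 -0.13. Between the 2 wild type organoid cultures, 9 of 18 genes of this list were 2-fold apart in Cy5, with a median difference of -0.98. A fall of this list is thus not set apart from the difference between cultures. Mptx1, a pentraxin, read -1.24 here but 0.52 from the authors' processed signals, and the cause of the difference was not tested. Without background correction it read -1.43. The list has 40 genes, of which 14 matched no probe by name and 5 had marked spots.

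Enterocyte markers rose: 15 of 40 measured genes passed 2-fold, none fell, and the median was 0.79. Slc6a19, the neutral amino acid transporter of the brush border, went from 5336 with to 24990 without R-spondin (1.76), Enpep, a brush border peptidase, from 10798 to 56082 (1.88), and Slc51b, a subunit of the bile acid exporter, from 839 to 4511 (1.91). Enpp3, an ectonucleotidase, went from 345 to 1535 (2.44, one of its probes 0.22). Alpi, the intestinal alkaline phosphatase, went from 3327 to 14897 but its change was 0.83, with 1.83 by the other probe. Another 16 members had spots marked by the scanner software. With marked spots kept, 8 of these rose and 1 fell with a median of 0.82. Krt20, a keratin of villus cells, read 2.40 and Anpep, a brush border peptidase, 1.65, whereas Fabp1, the fatty acid binding protein, read -0.02 at 549447 and 378690.

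Markers of secretory lineages other than Paneth cells lay above 0 more than below: 22 of 27 goblet, 26 of 30 enteroendocrine and 24 of 24 tuft. The median over all genes was itself 0.07. Of 27 measured goblet cell markers 7 rose and none fell (median 0.49), of 30 enteroendocrine markers 3 rose and 1 fell (0.37), and of 24 tuft cell markers 3 rose and none fell (0.41). The 2 wild type organoid cultures were 2-fold apart in Cy5 for 4 of 25 goblet, 4 of 27 enteroendocrine and 0 of 19 tuft genes. Clca1, a secreted goblet cell protein, went from 21967 with to 179266 without R-spondin (1.49), Rep15 from 3113 to 17518 (2.18), Capn9, a calpain of the gut, from 306 to 1793 (2.34) and Bcas1 from 662 to 3406 (2.38). Other goblet markers did not pass 2-fold by ratio, among them Tff3 (-0.16), Fcgbp (0.18), Spdef (0.23) and Agr2 (0.68). By Cy5 alone Fcgbp (1.69) and Agr2 (1.78) passed 2-fold, and Tff3 (0.74) and Spdef (0.315) did not. Pyy, a gut hormone, went from 633 to 1404 (1.19, its other probe 0.48), Pcsk1, the prohormone convertase, from 444 to 1137 (1.55, one probe 0.34), and Tph1, the enzyme of serotonin synthesis, from 176 to 340 (1.12, in Cy5 at least 2.65-fold higher). Mnx1, a homeobox factor of the enteroendocrine list, fell (-1.90). Of the tuft genes, Ltc4s, which makes a leukotriene, went from 461 to 1129 (1.52) and Rgs13 from 271 to 581 (1.11), and Dclk1, the usual tuft marker, read 0.70.

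For several of the brightest differentiation genes the ratio was far smaller than the Cy5 difference, as the Cy3 reference moved the same way. Zg16, a goblet cell lectin chosen after its values were seen like the others of this paragraph, gave 341569 without and 34838 with R-spondin in Cy5, and Cy3 signals of 5457 and 1050. Its Cy5 difference was 2.94, its Cy3 difference 2.48 and its ratio change 0.54. Muc2, the main gel-forming mucin, gave Cy5 signals of 18430 and 2376 and Cy3 signals of 575 and 187, for differences of 2.78 and 1.88 and a ratio change of 0.93. Clec2h, a lectin-related protein, had differences of 2.91 in Cy5 and 2.69 in Cy3 and a ratio change of 0.25, and Rbp2, the retinol carrier of enterocytes, had 2.57, 2.01 and 0.70. The same was seen downward: Kcnq1, a potassium channel, had differences of -2.92 in Cy5 and -1.67 in Cy3 and read -0.96 by ratio, and its subunit Kcne3 had -3.71 and -1.69 and read -1.78. Of the 75 genes 2-fold apart in Cy3, 74 had a Cy5 difference of the same sign, 69 passed 2-fold in Cy5 the same way, and 72 had a ratio change smaller than the Cy5 difference. Only 13 of them passed 2-fold by ratio, and the median of their higher Cy5 signal was 23500. What moved the reference channel was not tested. By Cy5 alone the enterocyte list had 26 genes up and a median of 1.29, the goblet list 12 and 0.78, and the enteroendocrine list 8 up and 2 down. Lgr5 had a Cy3 difference of -1.07 and a Cy5 difference of -6.36, and Olfm4 had Cy3 signals of 102 without and 316 with R-spondin and a Cy5 difference of -6.77, so that both fell further by Cy5 alone than by ratio.

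**Figure D3:**
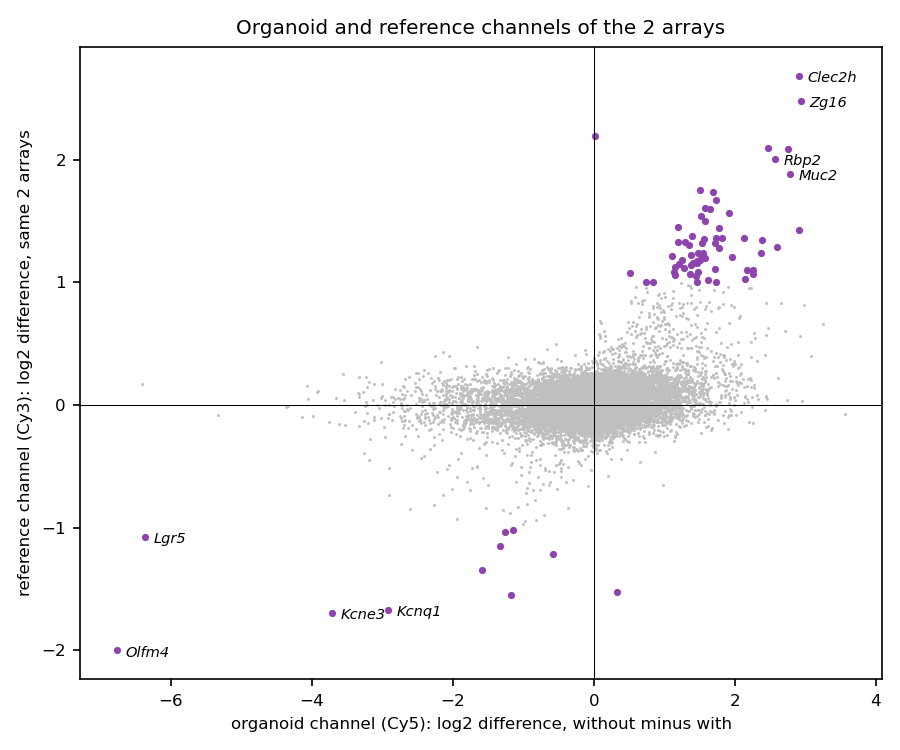
Difference in Cy3 reference signal (y axis) against difference in Cy5 signal (x axis) between the arrays without and with R-spondin, both log2, 1 point per gene and purple for the 75 genes 2-fold apart in Cy3. Of those 75, 74 differ with the same sign in both channels.

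Among the highest single genes, Rgs2, which shortens G protein signalling, went from 927 with to 11217 without R-spondin (3.57, its other probe 0.99). Aqp3, a water and glycerol channel of the surface epithelium, went from 933 to 8173 (2.72) and Fam3b, a secreted protein, from 1043 to 10261 (2.65). Others among the 15 highest were Slc26a3, the chloride/bicarbonate exchanger of surface cells, from 1762 to 7083 (2.20), Slc23a1, a vitamin C transporter, from 225 to 725 (2.29), Slc5a4a from 319 to 1284 (2.28) and Asah2, a ceramidase, from 1754 to 9025 (2.24, one probe 0.93). Lgals3, a galectin, went from 4993 to 30315 (2.29), Gk, the glycerol kinase, from 457 to 2138 (2.32), Cyp2c23, a P450 enzyme, from 402 to 1647 (2.25) and Sowaha from 340 to 1340 (2.39). Aquaporins went both ways, since Aqp1 fell from 15126 to 3447 (-2.30) and Aqp4 from 2070 to 695 (-1.52).

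Transcription factors of the mature intestine were among the genes that rose, with 7 of 27 measured up and 1 down. Maf went from 425 to 1418 (1.75, one probe 0.48), Hnf4g, a nuclear receptor of enterocytes, from 2319 to 8785 (1.23), Isx from 11392 to 50043 (1.18) and Nr5a2 from 1020 to 2737 (1.18). Foxa2, a factor of secretory cells, fell from 7292 to 2027 (-1.84). Cdx2, the factor of intestinal identity, read -0.12.

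In other signalling pathways of the crypt most members did not pass 2-fold, beside 6.49% fallen and 4.42% risen over all genes. Of 31 Notch genes 6 fell and none rose (median -0.16), among them Hes5 (777 to 262, -2.07), the ligand Jag2 (635 to 258, -1.88), Nrarp (-1.23) and Notch2 (-1.30, although another probe read 0.19). Of 30 Id, BMP and TGF-beta genes 3 fell and 2 rose (0.04): the ligand Bmp7 went from 8636 to 1951 (-2.18), whereas Id4, an inhibitor of differentiation factors, went from 261 to 738 (1.72) and Tgfbi from 1341 to 4985 (1.92). Of 28 MAPK and ErbB genes 3 fell and 2 rose (0.00). Etv4, an ETS factor of growth factor signalling, fell (-2.54), and the EGF family ligand Areg (1.08) and the receptor Erbb3 (1.26, one of its probes 0.39) rose. Among 16 Eph receptors and ephrins 4 fell, including Epha4 (-1.71, its other probe -0.66) and Efna4 (-1.32) beside Ephb2 and Ephb3.

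Of the Nrf2 and glutathione genes, 8 of 18 measured rose and none fell, with a median of 0.67. Gsta4, a glutathione transferase, went from 6669 to 28734 (1.48), Gstk1 from 2463 to 9386 (1.40), and Srxn1, which repairs peroxiredoxins, from 9105 to 24508 (1.34). By Cy5 alone 6 rose, and 11 further members had marked spots. In arginine, proline and glutamine metabolism 4 of 18 fell and 1 rose: Gls2, a glutaminase, went from 3248 to 440 (-3.15) and Cps1, the first enzyme of citrulline synthesis, from 50186 to 21341 (-1.07), while Arg2, a mitochondrial arginase, went from 4005 to 35718 (1.57). Of the interferon genes 2 of 30 rose, of p53 targets and CDK inhibitors 2 rose and 2 fell of 23, and of cholesterol and fatty acid synthesis genes 1 of 29 rose (Elovl6, 1.30). Over all genes 4.42% rose and 6.49% fell, and these 3 lists are not set apart from those shares. The p53 targets included the death receptor Fas (734 to 2111, 1.51, its other probe 0.87), and Cdkn1c, a CDK inhibitor, read 1.05. Phlda3 (6738 to 3582, -1.20) and Cdkn2c, another CDK inhibitor (2176 to 1296, -1.05), fell. Of the inducible antimicrobial genes 3 of 15 rose, with Reg1 going from 10187 to 48000 (1.89), and Reg3g reading 1.20 here but -0.96 from the authors' processed signals. None of 18 hypoxia and glycolysis genes passed 2-fold, and of 23 stress and immediate early genes 1 fell (Hsph1, a heat shock protein, -1.25).

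The same genes were then read in samples that shared no array with the withdrawal: organoids of VillinCre_wt and VillinCre_Lgr4fl/fl-Lgr5fl/fl mice, 2 cultures each, taken 1 day after tamoxifen induction or deletion, and crypts of mice with the same deletion through AhCre against wild type crypts, as 2 biological replicates with swapped dyes. VillinCre acts in the whole intestinal epithelium, not in stem cells alone, and AhCre is switched on by xenobiotics. With 2 cultures against 2 the smallest exact two-sided permutation p is 0.333, so counts of cultures that do not overlap are given beside the share over all genes. Of 1037 genes that fell on withdrawal and were measured there, 702 (67.7%) lay lower in both deleted than in both wild type cultures, against 18.4% of all genes, and 14 lay higher. Of 690 that rose, 346 (50.1%) lay higher in both, against 18.2% of all genes, and 17 lay lower. The median deleted minus wild type difference (Cy5, log2) was -0.546 over the fallen, 0.391 over the risen and 0.0192 over all genes. Each of 2 slides held 1 culture of each kind. On both slides the deleted culture was the lower for 80.9% of the fallen genes (29.9% of all) and the higher for 77% of the risen (34.1% of all). In crypts, 596 of 1021 fallen genes (58.4%) were below 0 in both replicates, against 32.9% of all, and 409 of 689 risen genes (59.4%) were above 0 in both, against 30.1% of all.

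**Figure D4:**
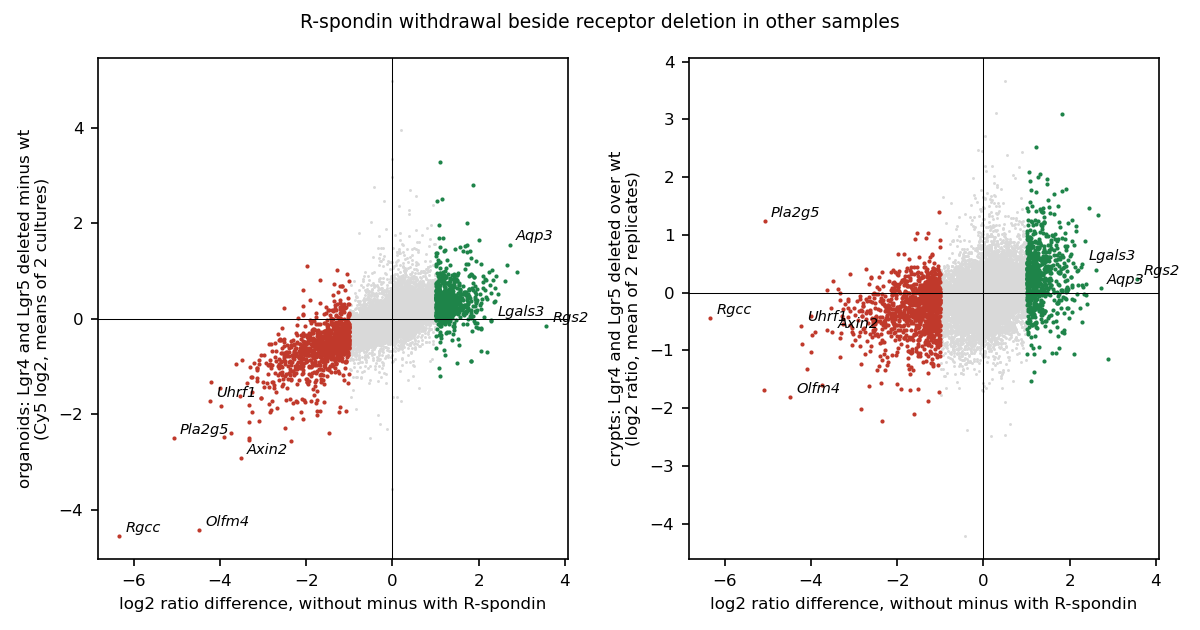
Change on R-spondin withdrawal (log2 ratio, x axis) against the deleted minus wild type difference in organoids (left, Cy5, mean of 2 cultures each) and in crypts (right, log2 ratio, mean of 2 replicates), 1 point per gene with a value in both. In the left panel 67.7% of the genes that fell on withdrawal lie lower in both deleted cultures, and 50.1% of those that rose lie higher in both.

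Single genes show how far the samples ran together. Lgr5 had Cy5 signals (median pixel) of 1004 and 1591 in the wild type cultures and 108 and 118 in the deleted cultures, where the gene itself was the target, and crypt values of -1.89 and -1.48. Lgr4, also a target, had 2035 and 2846 in wild type and 198 and 356 in deleted cultures, and crypt values of -1.51 and -1.61, whereas it did not change on withdrawal beyond 2-fold. Axin2 had 460 and 704 in wild type and 110 and 122 in deleted cultures, with crypt values of -0.72 and -0.66. Olfm4 had 6106 and 10927 against 258 and 902, with crypt values of -1.998 and -1.62. In each of these the raw signals of the wild type and deleted cultures did not overlap. Marked spots left Lgr5 out of the normalised comparison. Slc12a2 had 5729 and 6050 against 658 and 2716, and crypt values of -1.46 and -1.73.

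Crypts went with the deleted organoids for some genes and not for others. Rnf43 had 5648 and 6288 in wild type and 1688 and 1593 in deleted cultures, and crypt values of -0.43 and 0.46. Rgcc had 2898 and 4126 against 231 and 171, with crypt values of -0.80 and -0.07. Pla2g5 had 323 and 977 against 124 and 147, and was above 0 in both crypt replicates, at 1.10 and 1.38. Chaf1b had 3058 and 2053 against 888 and 2571, so that the raw signals overlapped, although after normalisation both deleted cultures lay below both wild type cultures. Its crypt values were -0.17 and 0.25.

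Several withdrawal genes had close or overlapping signals in wild type and deleted organoids. Hes5 had 165 and 160 in wild type and 174 and 180 in deleted cultures, and Rgs2 had 1842 and 1904 against 1931 and 1903. Lgals3 had 884 and 1596 against 1349 and 1256, and Cldn2, a pore-forming claudin that fell on withdrawal from 6403 to 1601 (-1.52), had 1281 and 2522 against 1578 and 2566. Marked spots left Cldn2 out of the normalised comparison. Among the genes that rose on withdrawal, Aqp3 had 512 and 527 in wild type and 1348 and 1956 in deleted cultures, Fam3b had 1090 and 951 against 2715 and 2263, and Id4 had 193 and 166 against 638 and 666. Of these, Fam3b was above 0 in both crypt replicates (1.89 and 0.78), and Id4 was below 0 in both (-0.24 and -0.10).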

How the data were processed

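The 2 R-spondin arrays were read from the authors' scanner files, which hold spot and local background values as intensity. They were written by Feature Extraction 10.5.1.1, per the file headers, although version 8.5.1.1 stands in the submitters' processing notes. Deposited log ratios, in the scanner files and the series matrix, are log10 of the processed red over green signal, and 8 columns of the matrix were not used. Spots the software marked as outliers were left out (6.47% of spots without and 3.27% with R-spondin, and 32.4% and 36.6% of those above 50000 in Cy5, so bright genes are missing more often). Mean pixel intensities were background-corrected with normexp (offset 50) and normalised by loess within each array in limma 3.58.1 (R 4.3.3, data.table version 1.17.8), giving log2 ratios computed from the deposited intensities. The Cy5 channel alone was quantile-normalised. Python 3.11.15 with pandas 2.3.3, numpy 2.4.6 and matplotlib 3.10.9 did the rest. The steps were tested on simulated data with known changes.

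Each gene was read by its brightest probe, and 14178 of 17165 genes had a symbol in the RefSeq gene list. A gene above background on 1 array only was given, where stated, as "at least" a fold in Cy5, the bright array's normalised Cy5 against the higher of the dim spot and the lowest signal called above background. For these bounds, normalised Cy5 was taken from the loess-normalised ratio and the average level of both channels, so it also depends on Cy3. Named genes were the 15 lowest and 15 highest whose probes and Cy5 had the same sign, the 8 lowest and 8 highest by such bounds, up to 4 per list and direction, and all measured members of the receptor and feedback lists. Of these 160 the text names those that carry a result, and members named beyond them were chosen after their values were seen. Members and lists were chosen with earlier results of these data known. The E2F letters, the histone list, the spread between cultures and the comparison within slides were added after seeing the data. Cy5 of the deletion cultures came from median pixel intensities, and each dye-swapped crypt pair was averaged. Precision is limited throughout by how few arrays there are.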

Additional observations from a re-analysis of the deposited data

How the results depend on the processing

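With 1 array per condition no array could be left out, and no paired analysis was possible because the conditions hold 1 array each. The count of fallen genes kept within 1.5 times of 1114 under every alternative run, from 956 without background correction to 1583 from the authors' processed signals. The count of risen genes was 759 and became 1248 (7.27%) from the authors' processed signals and from the series matrix, which hold the same values. The enterocyte median of 0.79 became 1.39 by Cy5 alone and 0.487 from the processed signals and from the matrix. The DNA replication median of -2.23 became -2.06 without background correction, -2.14 with median centring and -2.59 from the processed signals and from the matrix. Directions turned for Mptx1 (0.524) and Reg3g (-0.957) from the processed signals and from the matrix, and for Msi1 (-0.365) with the mean over its probes. The share of risen genes higher in the deleted cultures went from 50.1% to 77% when compared within each slide, which asks less of a gene. The cause of the other shifts was not tested. Of 1743 values of named genes under alternatives, 140 moved by more than the SD between the wild type cultures (0.528) or reversed, and of 418 list medians 48 moved by more than the list's own difference between those cultures and 0 reversed. The median over all genes lay between 0.0333 and 0.122 under all of them. Faint genes such as Lgr5 and Axin2 without R-spondin are limited by signal over background.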
